A study of Mus musculus with 42 samples.

Results

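The genes described here encode the peptide hormones of colonic enteroendocrine cells and the enzymes that make serotonin, 10 of the 20462 genes that the 9 tables of the study list. They were chosen by symbol and by what they encode, not by a measured value. They are *Gcg*, *Pyy*, *Insl5* and *Nts* (products of L cells), *Sst* (the product of D cells), *Tph1*, *Ddc* and *Tac1* (serotonin synthesis and tachykinins of enterochromaffin cells), and *Sct* and *Cck*. Each symbol had 1 row in each table, and the tables held 42 libraries in 14 groups.

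All libraries were from mice on the C57/BL6 background, at least 8 weeks old. MTG16, encoded by *Cbfa2t3*, is a transcriptional corepressor that binds the E proteins, transcription factors of the basic helix-loop-helix class. Mtg16-null mice are homozygous for a null allele of the gene in the whole body, and T/T mice are homozygous for P209T, a point mutation in *Mtg16*. The mutants came from separate colonies bred from heterozygous crosses, each with its own wild-type (WT) littermates. At baseline, chelation was used to isolate crypts from either end of the colon, proximal being the 5 cm that adjoin the cecum and distal the 5 cm that adjoin the anus. The proximal groups were 2 Mtg16-null, 2 WT of that colony, 2 T/T and 2 WT of the T/T colony. The distal groups were 4 Mtg16-null, 4 WT of that colony, 4 T/T and 3 WT of the T/T colony. After 5 days of 2% (w/v) dextran sulfate sodium (DSS), which injures the colonic epithelium, and 4 days of water, distal crypts gave 4 Mtg16-null, 3 WT of that colony, 3 T/T and 3 WT of the T/T colony. Distal tumors, 3 T/T and 3 WT, followed 10 mg/kg of azoxymethane (AOM), a carcinogen, and 3 cycles of 3% DSS for 4 days with 16 days of water, and were homogenized whole. The labels number the libraries of a group and do not say that each is a separate mouse, so p-values measure the spread between libraries.

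Enteroendocrine cells are rare, scattered epithelial cells that sense the gut lumen and release hormones into blood or onto nearby nerves. Colonic L cells make proglucagon (*Gcg*), which is cleaved to GLP-1, GLP-2 and oxyntomodulin, together with peptide YY (*Pyy*), which slows transit, and INSL5 (*Insl5*), a relaxin-family peptide that is made mainly in the distal colon. Enterochromaffin cells make most of the body's serotonin. TPH1 hydroxylates tryptophan in the rate-limiting step, and DDC, which many cells besides enterochromaffin cells carry, decarboxylates the product. *Sst* encodes somatostatin, which inhibits the release of other hormones, *Nts* neurotensin, *Tac1* substance P and neurokinin A, *Sct* secretin and *Cck* cholecystokinin, the last typical of the upper intestine.

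Values are normalized counts, that is, reads per gene divided by a size factor per library. The tables were scaled separately, so a level has meaning within its own table only. limma was applied to log2 (normalized count + 1) of genes whose mean was 10 or more, and "adjusted p" is limma's p after Benjamini-Hochberg adjustment over all genes tested in a comparison unless another tool is named. In these tables of bulk RNA, fewer cells of a type and less RNA per cell cannot be told apart. In 38 libraries, 32231389 to 74661922 whole reads were recovered (median 46659625.5). The summed count of 7 epithelial markers was 525010.0 to 621093 in distal and 496195 to 602093 in proximal WT crypts, and that of 9 stromal and muscle markers 115 to 320.2 and 90.0 to 236. *Cbfa2t3* had 694, 1095, 424 and 688 normalized counts in the distal Mtg16-null libraries and 1809, 1666, 1027 and 1555 in their WT littermates.

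The library labelled distal Mtg16-null replicate 2 stood apart. A segment score was taken as the mean log2 level of the 50 genes most strongly proximal in WT colon minus that of the 50 most strongly distal, without the 10 genes of this report. It was 6.96 in that library and -6.14, -7.08 and -7.01 in distal Mtg16-null replicates 1, 3 and 4. The 4 distal WT libraries of the same table lay between -7.57 and -6.55, while in the table of WT segments proximal WT libraries lay between 7.13 and 8.17 and, in theirs, proximal Mtg16-null libraries at 7.49 and 7.60. This 1 library therefore had the segment genes of proximal colon, against its label, and the results of distal Mtg16-null colon are given with and without it. No other baseline library lay on the side opposite to its label. After DSS, distal scores were less negative, from -6.02 to -1.94, and tumors lay between -3.50 and -2.48. Not every comparison listed all genes of the score, with 40 of the distal ones listed in proximal Mtg16-null and 38 in proximal T/T colon. Proximal WT replicate 1 of the Mtg16-null colony scored 7.90 with 50 distal genes listed and 7.95 with 40.

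**Figure D1:**
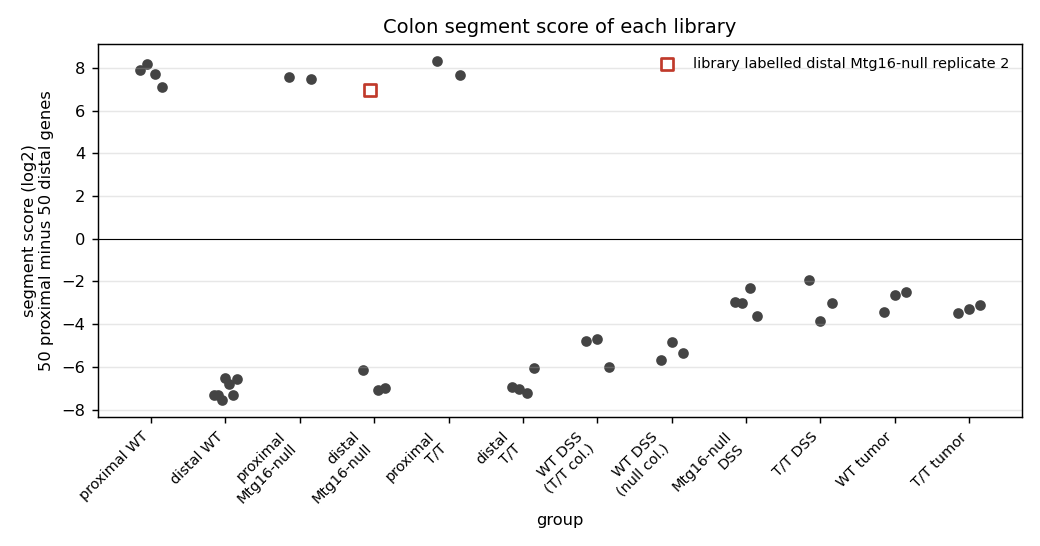
Segment score (mean log2 level of 50 proximal minus 50 distal genes, y axis) of each library, by group (x axis), with 1 point per library. All distal libraries lie below 0 except the one labelled distal Mtg16-null replicate 2, which lies at 6.96, on the side of the proximal libraries and just below them.

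In WT crypts, the hormone repertoire differed between the segments. Distal colon (7 libraries of both colonies) had more *Pyy*, *Insl5*, *Ddc* and *Tac1* than proximal colon (4 libraries), and less *Gcg*, *Nts*, *Sst*, *Tph1*, *Sct* and *Cck*. All 10 genes passed the test, 4 higher and 6 lower in distal colon. Among the 13841 genes tested, 20.1% passed as higher and 22.0% as lower. For 9 of the 10, all but *Gcg*, no library of a segment overlapped the other segment, as for 30.0% of all genes tested. So many genes differ between the segments that the number of hormone genes called says little by itself, and the sizes and directions are given below.

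*Pyy* (chromosome 11, 102106676 to 102107832, minus strand of GRCm38) had 3151 to 4194 (median 3682) normalized counts in the 7 distal libraries and 1012, 861, 821 and 601 in the 4 proximal ones. Its log2 fold change from proximal to distal was 2.15 ± 0.12 (SE, adjusted p = 7.98e-09), a 4.45-fold higher level. *Insl5* (chromosome 4, 103017872 to 103026842, minus strand) had 2687 to 4433 (median 3051) in distal and 144, 118, 112 and 250.2 in proximal colon, 22.1-fold higher in distal colon (log2 fold change 4.47 ± 0.20 SE, adjusted p = 1.22e-09). Every distal library was thus far above every proximal one. *Gcg* (chromosome 2, 62474530 to 62483650, minus strand), transcribed in the same L cells, had 1587 to 3141 (median 1826) in distal and 3134, 3040.0, 2578 and 2543 in proximal colon, and its log2 fold change was -0.50 ± 0.17 (SE, adjusted p = 0.0289). Its highest distal library lay above all 4 proximal ones. The *Gcg* call was the least stable of the 10: the adjusted p was 0.441 within the libraries whose labels open with the number 4149 (2 against 2), 0.0545 with edgeR, and 0.0504 to 0.0823 when any of 6 of the 11 libraries was left out.

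*Nts* (chromosome 10, 102481756 to 102490486, minus strand) was close to absent from distal WT colon. It had 1296, 936, 1004 and 632 normalized counts in the proximal libraries and was 0 in 5 of the 7 distal ones, with 1.28 and 1.11 in the remaining 2. Summed over libraries, 4218 reads were recovered in proximal and 2 in distal colon, a ratio per unit of depth of 3421 with a 95% exact interval for counting error of 946 to 28258. No other gene of the 10 had a distal library at 0.

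*Sst* (chromosome 16, 23889573 to 23890958, minus strand) had 99.4 to 144 (median 124) normalized counts in distal and 485, 518, 265 and 296 in proximal colon (log2 fold change -1.63 ± 0.19 SE, adjusted p = 1.3e-05). The genes of enterochromaffin cells went in opposite directions. *Tph1* (chromosome 7, 46644641 to 46672537, minus strand) had 326 to 669.8 (median 518) in distal and 1256, 857, 1317 and 1005 in proximal colon, 2.32-fold lower in distal colon (-1.21 ± 0.18 SE, adjusted p = 0.000116). *Tac1* (chromosome 6, 7554879 to 7565834, plus strand) had 1505 to 3642 (median 1628) in distal and 346, 361, 605 and 491 in proximal colon, 4.37-fold higher in distal colon (2.13 ± 0.24 SE, adjusted p = 7.07e-06). Every distal library was below the proximal ones for *Tph1* and above them for *Tac1*.

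*Ddc* (chromosome 11, 11814101 to 11898144, minus strand), the enzyme after *Tph1*, had 3644 to 6010.3 (median 4384) in distal and 1852, 1717, 1473 and 1555 in proximal colon (1.52 ± 0.12 SE, adjusted p = 3.21e-07). Its position overlaps 1700042O10Rik on the opposite strand, and the sources used here do not say whether reads were assigned by strand, so *Ddc* is uncertain to that extent. *Sct* (chromosome 7, 141278330 to 141279133, minus strand) had 73.3 to 157 (median 108) in distal and 1502, 1380.4, 1091 and 871 in proximal colon, 11.2-fold lower in distal colon (-3.49 ± 0.22 SE, adjusted p = 2.74e-08). *Cck* (chromosome 9, 121489824 to 121495694, minus strand) was the lowest of the proximal genes per length and had 20.2 to 44.0 (median 32.7) in distal and 106, 83.4, 84.8 and 64.7 in proximal colon (-1.38 ± 0.24 SE, adjusted p = 0.000355). Within the label number 4149 alone, where 2 libraries stand against 2, the 9 genes other than *Gcg* were still called. The labels do not say what that number marks.

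**Figure D2:**
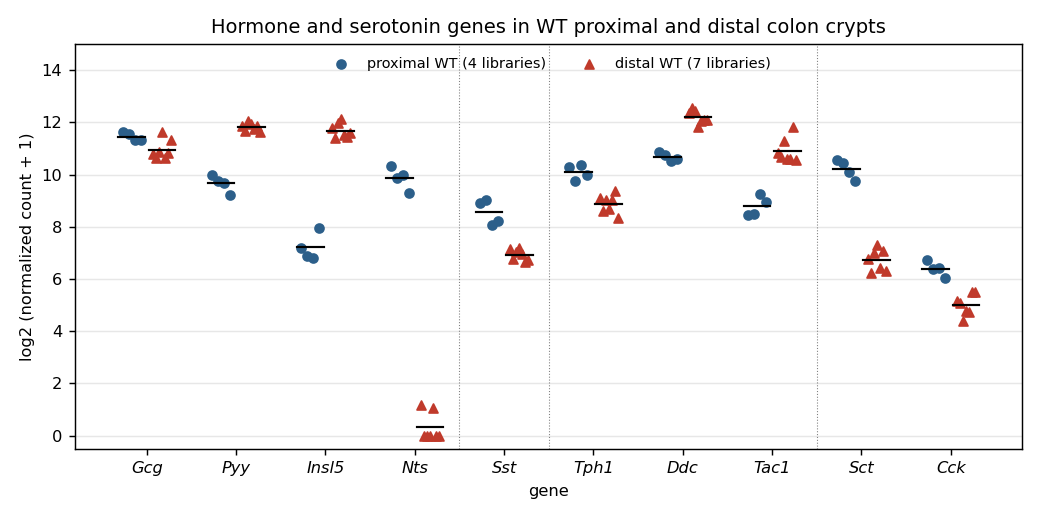
Log2 (normalized count + 1) of the 10 genes in 4 proximal and 7 distal WT libraries (y axis) by gene (x axis, grouped as L-cell, D-cell, enterochromaffin and other products), with bars at the group means. *Pyy*, *Insl5*, *Ddc* and *Tac1* are higher in distal colon, and the other 6 are lower, with *Nts* at 0 in 5 distal libraries.

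Levels of different genes were set side by side only after division by transcript length. In distal WT colon, mean normalized counts per kilobase ran from *Pyy* (6529), *Insl5* (4811), *Ddc* (2362), *Gcg* (1881) and *Tac1* (1644) to *Sct* (214), *Sst* (169), *Tph1* (106), *Cck* (41.5) and *Nts* (0.274). Of neighbours in that order, *Insl5* and *Ddc*, *Tac1* and *Sct*, *Tph1* and *Cck*, and *Cck* and *Nts* had ranges that did not overlap, while the remaining neighbours overlapped. In proximal WT colon the order was *Gcg* (2595), *Sct* (2389), *Pyy* (1484), *Ddc* (817), *Nts* (775), *Sst* (542), *Tac1* (366), *Tph1* (243), *Insl5* (225) and *Cck* (108). There, *Pyy* and *Ddc*, and *Insl5* and *Cck*, were the neighbours whose ranges did not overlap. *Insl5*, second in distal colon, was thus ninth in proximal colon.

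The balance of products within a library does not depend on the scaling. 5 ratios (*Pyy*/*Gcg*, *Insl5*/*Gcg*, *Sst*/*Gcg*, *Tph1*/*Gcg* and *Tac1*/*Tph1*) were compared in the 9 tables by exact two-sided permutation tests, 45 in all, with Benjamini-Hochberg adjustment over them. In WT colon the log2 of *Pyy*/*Gcg* was 0.30 to 1.17 in distal and -2.08 to -1.63 in proximal libraries, a mean difference of 2.66. The mean difference was 4.97 for *Insl5*/*Gcg*, -1.13 for *Sst*/*Gcg* and 3.34 for *Tac1*/*Tph1*. Each of these 4 had an exact permutation p of 0.00303, the smallest that 7 libraries against 4 allow, and an adjusted p of 0.0341. They were the only ratios of the 45 that passed, which the group sizes fix in part, since in the other 8 tables the smallest exact permutation p was 0.0286 or more and could not pass after adjustment. *Tph1*/*Gcg* differed by -0.71 (exact permutation p = 0.0727). Without any 1 of the 11 WT libraries the smallest possible p rises and none of the 45 passes.

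Genes around these hormones also differed between the segments in WT colon. Of 12 pan-endocrine genes, which all endocrine cells share, 5 were higher in distal colon, *Scg5*, *Cpe*, *Scgn*, *Cplx2* and secretogranin 2, *Scg2* (log2 fold change 4.39, adjusted p = 3.53e-09), and 3 were lower. The 3 were *Chga* and *Chgb*, which encode chromogranins, and *Pcsk1* (-2.49, adjusted p = 1.24e-08), which encodes the convertase that cuts proglucagon to GLP-1. Of 10 sensor genes tested, *Gpr119*, *Olfr78* and the mechanosensitive channel gene *Piezo2* (4.76) were higher and *Ffar2*, *Ffar4*, *Casr* and *Olfr558* lower in distal colon. Of 9 genes of serotonin handling, *Slc6a4*, the serotonin transporter, was higher (1298 and 135 mean normalized counts in distal and proximal colon, log2 fold change 3.26), as were *Maob* and *Gch1*, while *Slc18a1*, *Maoa*, *Pts* and *Qdpr* were lower. Of 9 receptor genes, *Glp2r*, *Npy1r* (4.56), *Sstr3* and *Htr4* were higher and *Glp1r* and *Sstr1* lower. Of 3 other peptide genes tested, the amylin gene *Iapp* was lower in distal colon (-4.34, adjusted p = 1.17e-06). The median log2 fold change was 0.15 over the pan-endocrine list and 0.0048 over all genes tested.

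Markers of other cells moved with the segment as well. The summed count of 7 ileal epithelium markers was 568 to 3499 in distal and 5232 to 9925 in proximal WT colon, without overlap. Of 6 tested, *Slc10a2*, the ileal bile acid transporter (239 and 6524 mean normalized counts in distal and proximal colon), and *Itln1* (77.4 and 479) were called lower in distal colon. The Paneth cell genes *Defa24* and *Defa30* were at 0 in all 7 distal and in 3 of the 4 proximal libraries, and 1 proximal library, WT replicate 2 of the T/T colony, had 506 and 128 normalized counts of them. The same library had 549 of *Apoa1*, where the other 3 proximal libraries had at most 7.17. Without it all 10 hormone genes were still called. *Fabp6* had the opposite sign (1.02, adjusted p = 0.255). The sum of 7 leukocyte markers was 726 to 2117 in distal and 2348 to 3770.0 in proximal colon, with *Ptprc* (-1.65), *Cd3e* (-2.09) and *Jchain* called lower and *Csf1r* and *S100a8* called higher in distal colon. That of 10 mast cell markers overlapped (2219.8 to 3982 and 3235 to 4341), with *Kit* called lower and *Cma1*, at 0 in proximal colon, called higher. The mast cell sum was mostly *Kit* (means 2398 and 3474). The sums of 10 neuron and glia markers (143 to 241 and 152 to 204) and of 9 stromal and muscle markers overlapped too, but the neuronal marker *Uchl1* was called higher in distal colon (50.8 and 2.17 mean normalized counts, log2 fold change 4.27), as was *Acta2* (1.91), and *Dcn* lower (-1.48). Enteric neurons also carry *Tac1*. The part of these cells in the segment differences of the hormones was not tested.

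In distal Mtg16-null colon, *Tph1* rose over WT littermates, and the L-cell genes *Pyy* and *Insl5* and the secretin gene *Sct* did so when the library with proximal segment genes was left out. With all 4 Mtg16-null and 4 WT libraries, 1 of the 10 genes passed the test, where 0.239% of the 13831 genes tested did, and without that library 4 did, where 1.04% of 13720 did. *Gcg* was higher in all 4 Mtg16-null libraries but missed the threshold in both fits. *Sst*, *Ddc* and *Tac1* had no called difference in either.

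*Tph1* had 1330.5, 2218, 1766 and 1164 normalized counts in the 4 Mtg16-null libraries (replicates 1 to 4 in order) against 566, 397, 533 and 422 in the 4 WT libraries. All Mtg16-null libraries were above all WT ones. The log2 fold change was 1.72 ± 0.21 (SE, adjusted p = 0.0201), a 3.31-fold rise, and 1.56 without replicate 2 (adjusted p = 0.00668). The call did not hold with the label number as a covariate (adjusted p = 0.0589), although the fold change was the same. Nor was *Tph1* called in any fit that left out another single library (adjusted p of 0.0511 to 0.0983).

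*Pyy* had 10903, 2159, 10129 and 12861 normalized counts in Mtg16-null and 3770.5, 3384, 4312 and 3969 in WT libraries. Replicates 1, 3 and 4 were above every WT library and replicate 2 was below every one. With all libraries the log2 fold change was 0.95 ± 0.51 (SE, adjusted p = 1), and without replicate 2 it was 1.55 (standard error 0.11, adjusted p = 0.000941), a 2.92-fold rise. *Insl5* had 8158, 543, 7354 and 8621 in Mtg16-null and 3645, 2759, 4115 and 4535 in WT libraries, with the same arrangement. Its log2 fold change was 0.15 ± 0.82 (SE, adjusted p = 1) with all libraries and 1.12 (0.16, adjusted p = 0.0144) without replicate 2.

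*Gcg* had 4340.2, 4974, 4054 and 4818 in Mtg16-null and 1789.5, 1630.3, 1919.6 and 3213 in WT libraries, without overlap. The log2 fold change was 1.14 ± 0.20 (SE, adjusted p = 0.0817), and 1.09 without replicate 2 (adjusted p = 0.0562). Unlike *Pyy* and *Insl5*, *Gcg* in replicate 2 was within reach of the other Mtg16-null libraries. In replicate 2 the log2 ratio of *Pyy* to *Gcg* was -1.20, the lowest of the 4 distal Mtg16-null libraries, while proximal Mtg16-null libraries had -1.39 and -1.38. *Sct* had 283, 1275, 315 and 327 in Mtg16-null and 110.1, 75.3, 129.6 and 160.4 in WT libraries. Without replicate 2, which was far above the other 3, the log2 fold change was 1.42 (0.25, adjusted p = 0.0348), and with it 1.93 ± 0.48 (SE, adjusted p = 0.268).

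*Cck* had 56.8, 199.9, 60.6 and 40.9 in Mtg16-null and 35.4, 33.6, 20.7 and 27.1 in WT libraries (log2 fold change 1.32 ± 0.47 SE, adjusted p = 0.77), all Mtg16-null libraries being higher, and it was 0.84 without replicate 2. *Gcg*, *Tph1*, *Sct* and *Cck* were the 4 genes without overlap between genotypes, where 3.75% of all genes tested had none. *Sst* had 144, 622, 131 and 195 in Mtg16-null and 144, 111, 133 and 147 in WT libraries. Replicate 2 was far above all other libraries, and the log2 fold change was 0.71 with it and 0.21 without it.

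*Nts* had 9.27, 2333, 2.84 and 0 in Mtg16-null and 1.31, 0, 0 and 0 in WT libraries, so replicate 2 held nearly all of its counts, and without that library its mean was under the minimum for a test. *Ddc* had 7504, 2772, 5620.0 and 6202 in Mtg16-null and 5382, 6173, 5663 and 3728 in WT libraries. *Tac1* had 899, 339, 3544 and 862 in Mtg16-null and 1866, 1672, 2538 and 1588 in WT libraries, 3 of the 4 Mtg16-null libraries lying below every WT one while replicate 3 lay above them. The log2 fold change of *Ddc* was 0.01 with and 0.31 without replicate 2, and that of *Tac1* -0.94 and -0.43. The *Tac1*/*Tph1* ratio was lower in each Mtg16-null library than in each WT library, with a mean log2 difference of -2.66 (exact permutation p = 0.0286, the smallest that 4 against 4 allow, adjusted p = 0.214), and -1.99 without replicate 2.

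**Figure D3:**
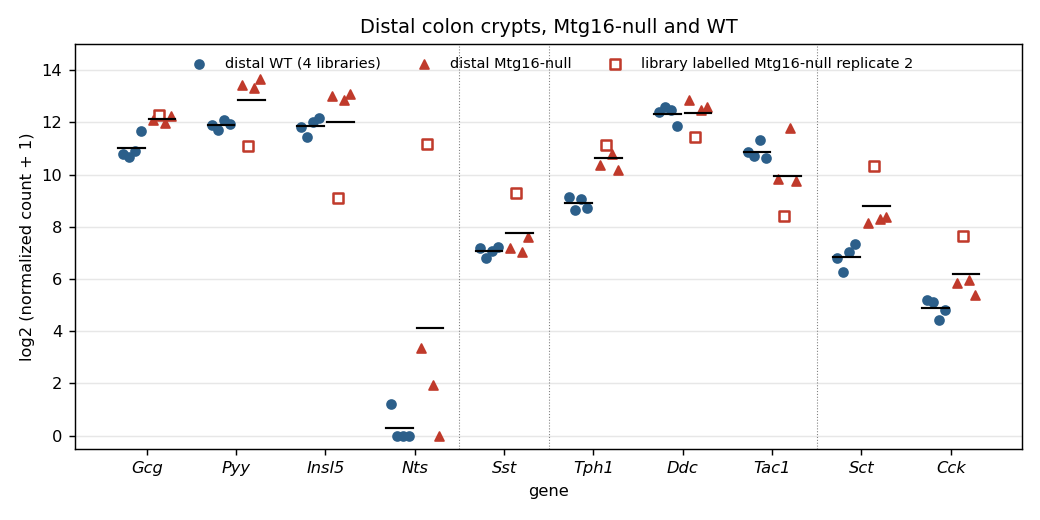
Log2 (normalized count + 1) (y axis) of the 10 genes (x axis) in 4 distal Mtg16-null and 4 distal WT libraries, with bars at the group means over all libraries and the library labelled Mtg16-null replicate 2 marked. That library lies below the other 3 Mtg16-null libraries for *Pyy*, *Insl5*, *Ddc* and *Tac1* and above them for *Nts*, *Sst*, *Sct* and *Cck*. It also lies above them, by less, for *Gcg* and *Tph1*.

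Without replicate 2, 8 of the 12 pan-endocrine genes rose in distal Mtg16-null colon (*Chga*, *Chgb*, *Scg2*, *Scg3*, *Cpe*, *Pcsk1n*, *Scgn* and *Cplx2*), with a median log2 fold change of 1.32 over the list and -0.00971 over all genes tested. With all libraries 3 did (*Chga*, *Chgb* and *Scg3*). *Chga* had a log2 fold change of 1.52 (adjusted p = 0.0201) with all libraries. Of the sensor genes, *Ffar1*, *Gpr119*, *Olfr78* and *Piezo2* rose without replicate 2, 4 of 9 tested, and *Ffar1* alone with it. The somatostatin receptor gene *Sstr5* rose in both fits (1.75 without replicate 2), the 1 receptor gene of 9 to do so. None of 9 genes of serotonin handling passed in either fit. The summed count of 8 enteric neuron and glia markers was 375 to 529.8 in Mtg16-null and 146 to 246 in WT libraries, with *Elavl3* called higher without replicate 2. That of 10 mast cell markers, cells that can also carry *Tph1* and *Ddc*, was 1044 to 3182 and 2626 to 4074, with *Cma1* called lower without replicate 2. The mast cell sum was mostly *Kit* (means 2240 and 2725 with all libraries). The part of these cells in the hormone results was not tested.

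E proteins bind the E box, CANNTG, which reads the same on both strands. The 250 bases before the gene start are shown for *Gcg*, *Pyy* and *Tph1*, L-cell and enterochromaffin genes whose Mtg16-null libraries were above WT in distal colon (*Pyy* without replicate 2), to show how unlike these windows are. They were taken from RefSeq for GRCm38.p6, 5′ to 3′ on the minus strand, with E boxes in capitals: *Gcg* at chr2:62483654-62483903, *Pyy* at chr11:102107833-102108082 and *Tph1* at chr7:46672538-46672787, the last 2 from 1 of 2 RefSeq entries each.
Gcg: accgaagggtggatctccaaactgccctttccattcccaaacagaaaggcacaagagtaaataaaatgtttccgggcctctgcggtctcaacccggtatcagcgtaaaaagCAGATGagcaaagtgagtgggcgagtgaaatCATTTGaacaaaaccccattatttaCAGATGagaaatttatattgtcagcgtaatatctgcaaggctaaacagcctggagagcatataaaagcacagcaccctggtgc
Pyy: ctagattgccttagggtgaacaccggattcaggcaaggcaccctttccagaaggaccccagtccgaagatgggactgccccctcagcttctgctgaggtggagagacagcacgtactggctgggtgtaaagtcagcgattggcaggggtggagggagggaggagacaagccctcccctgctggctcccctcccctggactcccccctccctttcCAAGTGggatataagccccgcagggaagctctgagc
Tph1: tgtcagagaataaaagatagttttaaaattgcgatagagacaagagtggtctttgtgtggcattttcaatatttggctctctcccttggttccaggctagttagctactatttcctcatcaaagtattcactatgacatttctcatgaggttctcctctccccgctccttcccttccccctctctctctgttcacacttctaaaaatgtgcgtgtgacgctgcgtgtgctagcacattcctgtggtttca
The window of *Gcg* held 3 E boxes, that of *Pyy* 1 and that of *Tph1* 0. Over all 10 genes the number was 3 for *Sct* and *Cck*, 2 for *Insl5* and *Tac1*, 1 for *Nts* and *Sst* and 0 for *Ddc*. At least 1 E box is present in 66.2% and at least 2 in 31.8% of 32851 windows of the same length over all genes. A match describes the letters of this window and is no measure of binding.

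In proximal Mtg16-null colon, with 2 libraries per genotype, none of the 10 genes passed the test, where 0.0645% of 13944 genes did. At an unadjusted p under 0.05 it was 831 genes. 6 of the 10 genes had both Mtg16-null libraries above both WT libraries, where 17.5% of all genes did. *Gcg* had 4543 and 5896 normalized counts in Mtg16-null and 3380.2 and 3241 in WT colon (log2 fold change 0.64 ± 0.15 SE, adjusted p = 0.407). *Pyy* had 1738 and 2263 against 1092 and 918 (0.99 ± 0.17 SE, adjusted p = 0.227). *Tph1* had 1725 and 2458 against 1354 and 914 (0.89 ± 0.24 SE, adjusted p = 0.565). These L-cell and enterochromaffin genes had no overlap between genotypes, nor did *Sst* (0.84), *Tac1* (0.75) and *Cck* (1.15). *Insl5*, *Nts*, *Ddc* and *Sct* overlapped. None of the 12 pan-endocrine genes passed, 11 having a positive fold change. The sum of 9 stromal and muscle markers was 163 and 2942 in the Mtg16-null libraries and 239.8 and 254 in the WT libraries, so 1 Mtg16-null library held most of it. The sum of 9 neuron and glia markers was 360.1 to 488 and 176 to 201, that of 7 leukocyte markers 3953 to 4737 and 2533 to 3852, that of 8 mast cell markers 2190.5 to 3317 and 3489 to 4629 and that of 4 ileal markers 5055 to 6898 and 5642 to 10582, with none of these markers called. The mast cell sum was mostly *Kit* (means 2685 in Mtg16-null and 3852 in WT colon). The ileal sum was mostly *Slc10a2* (5155 and 7375), while *Fabp6* went the other way (404 and 181). The part of these markers in the hormone values was not tested.

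In T/T colon at baseline, none of the 10 genes passed in either segment, where 0.232% of 13767 genes did in proximal and 0.0369% of 13535 in distal colon. At an unadjusted p under 0.05 it was 1652 and 629 genes. In proximal colon 7 of the 10 had both T/T libraries above both WT libraries, where 22.6% of all genes did, and *Tac1* had both below, with 381 and 311 in T/T and 588 and 472 in WT colon, as 22.9% of genes did. *Gcg* had 3955 and 3211 in T/T and 2506 and 2446 in WT libraries (0.53 ± 0.12 SE, adjusted p = 0.197). The sum of 9 stromal and muscle markers was 76.2 and 1225 in the proximal T/T libraries and 87.4 and 108 in WT libraries. The ileal markers *Defa24*, *Defa30* and *Apoa4* were at 0 in both T/T libraries and in 1 of the 2 WT libraries. The other, WT replicate 2, had 487, 124 and 43.7 of them. Means in T/T and WT colon were 6866 and 5956 for *Slc10a2* and 234 and 1039 for *Fabp6*. None of these markers was called, and their part was not tested.

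In distal T/T colon *Pyy* had 4326, 4139.8, 4188 and 4388 normalized counts against 3241, 3472 and 2906 in the 3 WT libraries, without overlap. The log2 fold change was 0.41 ± 0.08 (SE, adjusted p = 0.464), and DESeq2 on the recovered reads called it (adjusted p = 0.00351). *Insl5*, its partner in distal L cells, had 4692, 3200.0, 4671 and 3565 against 2719, 2601 and 2813, also without overlap (0.55 ± 0.15 SE, adjusted p = 0.863). No other of the 10 genes lacked overlap, against 7.70% of all genes in either direction. *Nts* was at 0 in 3 T/T and 2 WT libraries and was not tested. In T/T as in Mtg16-null distal colon *Tac1*/*Tph1* was lower in each mutant library (-1.31, exact permutation p = 0.0286, adjusted p = 0.214).

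Whether the mutants differed in their effect was tested directly, with the fold changes and standard errors of the tables concerned, over all genes tested in both, in 6 pairs of comparisons that share no library. The test takes the sides of a pair as independent. The labels do not say whether proximal and distal libraries came from the same mice. With all libraries, none of the 10 genes passed in any pair. The difference of the distal effects, Mtg16-null minus T/T, was 0.54 for *Pyy* with all libraries (95% interval -0.62 to 1.70). Without Mtg16-null replicate 2 it was 1.13 (0.84 to 1.43, adjusted p = 0.00681), and *Pyy* was then the 1 gene of the 10 that passed. For *Gcg* this difference was 0.76 (adjusted p = 0.958) and for *Tph1* 1.09 (adjusted p = 0.958) with all libraries, and 0.72 and 0.92 without replicate 2. The Mtg16-null effect, proximal minus distal, was negative for *Sct* (-2.04, adjusted p = 0.796; without replicate 2, -1.53, adjusted p = 0.117). For *Nts* it was -3.52 (95% interval -8.30 to 1.27, adjusted p = 0.999), with nearly all of the distal counts in replicate 2.

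After DSS, distal WT colon of the T/T colony had more RNA of 6 of the 10 genes than at baseline, *Gcg*, *Pyy*, *Insl5*, *Sst*, *Sct* and *Cck*, and less *Ddc*. In this comparison of 3 libraries with 3, 13566 genes were tested, of which 14.0% rose and 21.6% fell. *Tph1* and *Tac1* did not pass, and *Nts* was too low to be tested. The libraries after DSS and those at baseline carry different label numbers (5740 and 5094), so DSS and whatever that number marks cannot be told apart. The call of single genes also rested on single libraries: none of the 10 genes passed without baseline WT replicate 2, 4 passed without baseline replicate 1, and 3 passed without DSS replicate 1. The calls over all genes moved with the same libraries, to 0.00739%, 5.05% and 3.78% of the genes tested, and to 66.9% without DSS replicate 3.

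*Cck* had the largest fold change of the 9 genes tested, with 238, 214 and 164 normalized counts after DSS and 27.9, 47.2 and 46.8 at baseline, a 5.03-fold rise (log2 fold change 2.33 ± 0.29 SE, adjusted p = 0.00803). *Sct* had 287, 314 and 222 after DSS and 93.4, 143 and 82.4 at baseline (1.39 ± 0.27 SE, adjusted p = 0.0151). *Sst* had 261, 291 and 255 after DSS and 136, 107 and 112 at baseline (1.19 ± 0.18 SE, adjusted p = 0.0101). For these 3 genes, all of which were lower in distal than in proximal WT colon, each library after DSS was above each baseline library, where 26.0% of all genes tested were without overlap and higher.

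The 3 L-cell genes rose as well. *Gcg* had 3466, 3356 and 4330.3 after DSS and 1753, 1962 and 2720.3 at baseline (0.81 ± 0.20 SE, adjusted p = 0.025). *Pyy* had 6407, 7259 and 7605 against 3766, 3984 and 3358 (0.94 ± 0.12 SE, adjusted p = 0.00814), and *Insl5* had 5296, 6545 and 7386 against 3159, 2984 and 3251 (1.02 ± 0.14 SE, adjusted p = 0.00908). None of the 3 overlapped between DSS and baseline. *Nts* had 11, 20.7 and 8.98 after DSS and 1.21, 0 and 0 at baseline, 48 recovered reads against 1, a ratio of 32.5 with a 95% exact interval for counting error of 5.56 to 1309.7.

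*Ddc* had 2939, 3899 and 2869 after DSS and 4621, 4709 and 4613 at baseline and fell by 0.54 on the log2 scale (adjusted p = 0.0313), a call that edgeR did not make. *Tph1* had 205, 189 and 438 against 565, 719 and 347 (-1.02 ± 0.41 SE, adjusted p = 0.0893), with 1 DSS library inside the baseline range. *Tac1* had 2159, 1231 and 1422 against 1674, 3912 and 1603 (-0.49 ± 0.39 SE, adjusted p = 0.335). These 3 genes thus had negative fold changes, but only *Ddc*, which many cells besides enterochromaffin cells carry, was called. Of 12 pan-endocrine genes only *Chga* passed (0.57, adjusted p = 0.0177).

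Among the other lists, the ghrelin gene *Ghrl* rose after DSS (1.71, adjusted p = 0.01), as did the somatostatin receptor genes *Sstr2* (1.72) and *Sstr5* (1.08) and the sensor genes *Ffar2* (1.36), a receptor of short-chain fatty acids, and *Gpbar1*, a receptor of bile acids. *Olfr78* fell (-2.27), as did the receptor genes *Glp2r*, *Npy1r* and *Htr4* and, in serotonin handling, *Maoa*, *Maob* and *Pts*, while *Spr* rose. The summed count of 10 neuron and glia markers was 387 to 466 after DSS and 202 to 228 at baseline, with *Ret* called higher, and that of 9 mast cell markers 3425 to 4714 and 2384 to 2916, with *Kit* called higher. The neuron and glia sum was mostly *Ret* (means 318 and 118), and the mast cell sum mostly *Kit* (means 3152 and 2208). The sum of 9 stromal and muscle markers was 229 to 422 and 132 to 182, with *Col1a1* (1.54) and *Col3a1* (2.00) called higher, that of 7 leukocyte markers 727 to 1106 and 1167 to 2073, with *Ptprc* called lower (-4.15) and *Csf1r* higher (0.76), and that of 4 ileal markers 838 to 875 and 826 to 1029.7, with *Slc10a2* called lower. Of 7 epithelium markers, *Cdh1* (0.44), *Vil1* (0.40) and *Cdx1* (0.49) were called higher. The segment score was -5.99 to -4.70 after DSS and -7.34 to -6.60 at baseline. The part of these shifts in the hormone results was not tested.

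**Figure D4:**
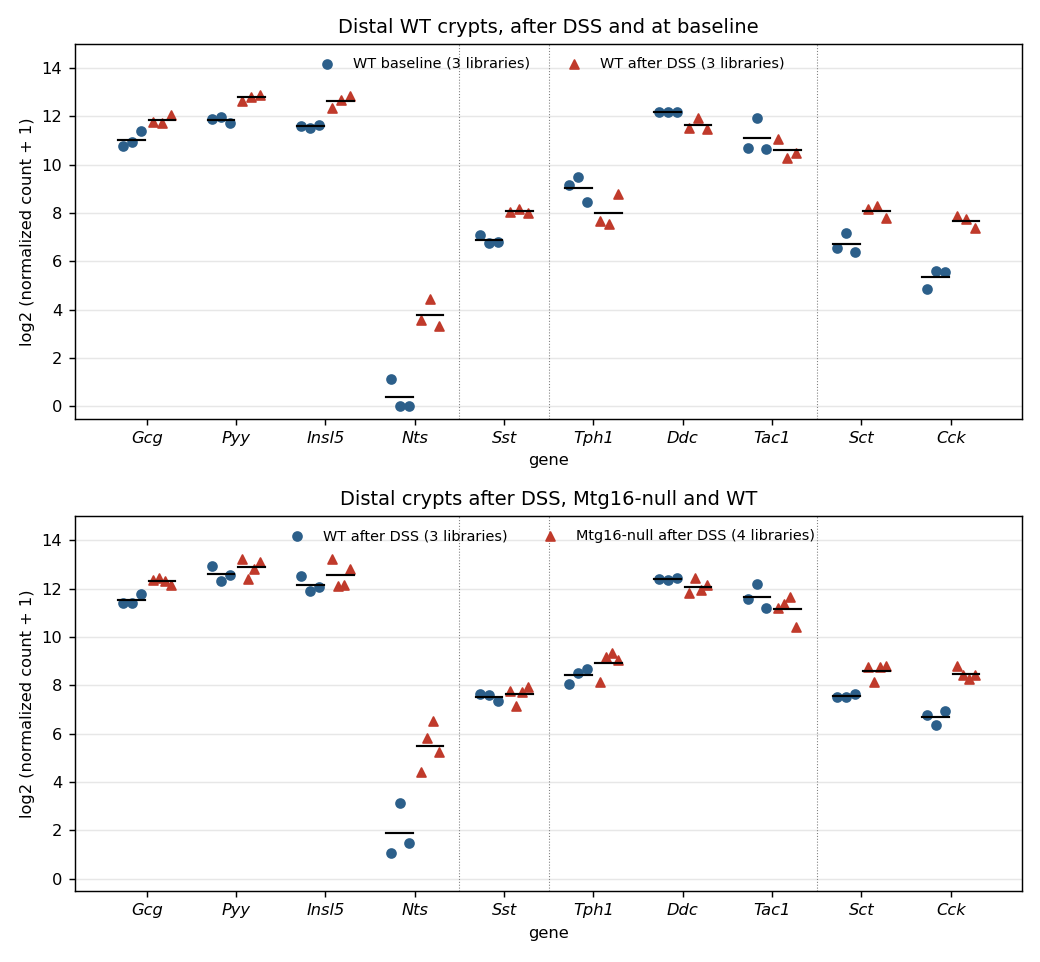
Log2 (normalized count + 1) (y axis) of the 10 genes (x axis) in distal WT crypts at baseline and after DSS (upper panel, 3 libraries each, T/T colony) and in distal Mtg16-null and WT crypts after DSS (lower panel, 4 and 3 libraries), with bars at the group means. *Gcg*, *Pyy*, *Insl5*, *Nts*, *Sst*, *Sct* and *Cck* lie higher after DSS than at baseline without overlap, and *Gcg*, *Nts*, *Sct* and *Cck* lie higher in Mtg16-null than in WT crypts after DSS without overlap.

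After DSS, Mtg16-null distal colon had more *Cck* and *Nts* than WT. *Gcg* and *Sct* missed the threshold, and passed when the replicate numbers were treated as pairs. No label states that pairing, which rests on a correlation seen in these same libraries. With 4 Mtg16-null and 3 WT libraries, 2 of the 10 genes passed, where 0.629% of the 14476 genes tested did. Libraries of the same replicate number deviated together in this comparison (3 pairs, correlations of 0.317 to 0.554), and with the number as a block 1271 genes passed, 828 of them higher, and 4 of the 10. The replicate block leaves Mtg16-null replicate 4 without a partner.

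*Cck* had 449, 347, 305 and 339.9 normalized counts in Mtg16-null and 109, 80.1 and 122 in WT crypts, a 3.46-fold difference (log2 fold change 1.79 ± 0.24 SE, adjusted p = 0.0144, and 1.81 with an adjusted p of 0.00191 with the block). *Nts* had 20.5, 55.2, 90.8 and 36.8 against 1.08, 7.82 and 1.82, 212 recovered reads against 11, a ratio of 14.8 (95% exact interval for counting error 8.10 to 30.1). Its log2 fold change was 3.60 ± 0.65 (SE, adjusted p = 0.0482), and 3.69 with the block (adjusted p = 0.00437), while edgeR did not call it, nor did limma with a pseudocount of 0.1 or without any of 6 of the 7 libraries (adjusted p of 0.0677 to 0.136). *Gcg* had 5256, 5628, 5171 and 4579 against 2733, 2690.4 and 3474 (0.80 ± 0.15 SE, adjusted p = 0.051, and 0.86 with an adjusted p of 0.00329 with the block). *Sct* had 433, 282, 428 and 442 against 181, 182 and 199.7 (1.05 ± 0.22 SE, adjusted p = 0.0675, and 0.99 with an adjusted p of 0.0137 with the block). These 4 genes were without overlap between genotypes, where 11.4% of all genes tested were.

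*Tph1*, *Pyy* and *Insl5*, of which the first was called at baseline and the others were called there without replicate 2, were not called after DSS. *Tph1* had 282, 579, 650.0 and 534 in Mtg16-null and 267, 363 and 409 in WT crypts after DSS (0.51 ± 0.30 SE, adjusted p = 0.56, 95% interval -0.16 to 1.19). *Pyy* had 9726, 5442, 7208 and 8931 against 7959, 5082 and 6106 (0.28 ± 0.23 SE, adjusted p = 0.685) and *Insl5* 9571, 4431, 4576 and 7125 against 5907, 3879 and 4298 (0.40 ± 0.28 SE, adjusted p = 0.644). All 3 overlapped between genotypes, as did *Sst*, *Ddc* and *Tac1*. Within each of the 3 pairs, however, *Tph1*, *Pyy* and *Insl5* were higher in Mtg16-null. With the block their log2 fold changes were 0.47 (adjusted p = 0.134), 0.21 (adjusted p = 0.223) and 0.33 (adjusted p = 0.162), so none was called. The difference between the Mtg16-null effects after DSS and at baseline did not pass for any of the 10 genes. It was -1.21 for *Tph1* (adjusted p = 0.75 from the limma fits), and, without the library with proximal segment genes, -1.26 for *Pyy* (adjusted p = 0.062).

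Of the other enteroendocrine peptide genes, *Ghrl* was higher in Mtg16-null colon after DSS (2.20, adjusted p = 0.0226). *Maob* was lower (-1.38), and none of 12 pan-endocrine, 9 sensor or 9 receptor genes tested passed. With the replicate block, where 8.78% of all genes passed, *Chgb* (0.79), *Cpe* (0.48) and *Pcsk1n* of the pan-endocrine genes and the fatty acid receptor gene *Ffar4* (0.54) were higher, and *Glp2r* (-3.04) and *Maoa* were lower beside *Maob*. The summed count of 10 neuron and glia markers was 798 to 1040.3 in Mtg16-null and 369 to 417 in WT crypts after DSS, and that of 7 leukocyte markers 4808 to 14116 and 1498 to 2900.5, with *Ret* and *Lyz2* called higher. *Ret* made up most of the former (means 850.3 and 311), while the neuronal marker *Uchl1* had 28.3 and 52.2. The sum of 9 stromal and muscle markers was 621 to 4634 and 588 to 734, none called, with means of 790.3 and 119 for *Col3a1*. That of 10 mast cell markers was 2508 to 3724 and 3705 to 6436, with *Cma1* called lower (-2.26), and that of 4 ileal markers 544 to 665 and 886 to 1030.4, with *Fabp6* called lower (276 and 716) while *Slc10a2* had 298 and 153 (0.97, adjusted p = 0.351). The mast cell sum was mostly *Kit* (means 1916 and 3526). With the block, *Slc10a2*, *Col1a2*, *Col3a1*, *Ptprc*, *Cd79a*, *Csf1r* and *S100a8* were also called higher and *Itln1*, *Mcpt1* and *Kit* lower. *Cdx2*, an epithelial marker that was also higher in proximal than in distal WT colon, was called higher (0.77). The segment score was -3.62 to -2.31 in Mtg16-null and -5.67 to -4.84 in WT crypts, and *Nts*, *Sct*, *Gcg* and *Cck* are among the genes that were higher in proximal than in distal WT colon. The part of the segment or of these cells in the hormone results was not tested.

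In T/T colon after DSS, none of the 10 genes passed, nor did any of the 13648 genes tested with limma (0.0%), while 1197 genes had an unadjusted p under 0.05, edgeR called 0 and DESeq2 334. *Nts* had 105, 61.5 and 31.7 normalized counts in T/T and 12.0, 22.3 and 9.48 in WT crypts (2.03 ± 0.54 SE, adjusted p = 0.315, DESeq2 adjusted p = 0.0223). It was the only gene of the 10 without overlap, where 13.7% of all genes were. As in Mtg16-null colon, each T/T library was above each WT library in *Nts*. The other 9 genes had log2 fold changes of -0.48 to 0.49. The summed count of 11 neuron and glia markers was 817 to 1172 in T/T and 417 to 492 in WT crypts, and the segment score -3.87 to -1.94 and -6.02 to -4.72. The first sum was mostly *Ret* (means 952 and 341, log2 fold change 1.47, adjusted p = 0.154), while *Uchl1*, the other marker tested, had 40.1 and 88.6 (-1.30, adjusted p = 0.521). The sum of 7 leukocyte markers was 1897 to 2361 and 784 to 1202, that of 10 mast cell markers 2757 to 3609.5 and 3617 to 5082 and that of 5 ileal markers 344 to 759.7 and 885 to 951, with none of these markers called. Members of these sums went in opposite directions. The mast cell sum was mostly *Kit* (1862 and 3387), while *Mcpt1* had 826 and 659, and the ileal sum was mostly *Fabp6* (247 and 771), while *Slc10a2* had 228 and 45.5 (log2 fold change 2.23, adjusted p = 0.531). The part of the segment or of these cells in the *Nts* difference was not tested. The WT libraries of this table also serve in the comparison of WT colon after DSS with baseline.

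In tumors, T/T and WT differed in none of the 10 genes by limma's test, and none of 15900 genes passed (0.0%), while 392 had an unadjusted p under 0.05, edgeR called 0 and DESeq2 24. Hormone levels spread widely between tumors of 1 genotype. *Gcg* had 332, 609 and 179.8 normalized counts in T/T and 479, 31.7 and 141 in WT tumors. *Insl5* had 369, 501 and 193 against 495, 29.1 and 107, and *Tph1* had 388, 566 and 188 against 327, 127 and 133. WT tumor replicate 2 was the lowest of its group in all 3, and the 95% interval of the log2 fold change of *Gcg* ran from -0.75 to 3.44, so differences of several fold were not detectable. *Pyy* had 1161, 1692 and 1311 against 1131, 229.8 and 747 (1.24 ± 0.52 SE, adjusted p = 0.998) and was the only gene of the 10 without overlap, where 5.52% of all genes were. The log2 fold change of *Pyy* rested on single libraries, being 0.58 without WT replicate 2 and 1.72 without WT replicate 1, with no call in either.

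*Nts* was counted in every tumor, with 95.9, 193 and 93.7 in T/T and 79.0, 144 and 104 in WT tumors, and *Ddc* had 2983, 2311 and 3308 against 2707, 1858 and 2215, so these genes varied less between tumors than *Gcg* and *Insl5* did. *Sst* had 12.0, 55.5 and 34.0 against 23.2, 5.28 and 21.7. The tumors were homogenized whole, and the summed count of 9 stromal and muscle markers was 147651 to 257060.0 in T/T and 147089 to 195853 in WT tumors. That of 11 neuron and glia markers was 1698 to 2099 and 1889 to 2825. *Tac1*, which enteric neurons also carry, had 861, 1467 and 517 in T/T and 929, 824 and 657 in WT tumors, and the part of neurons was not tested.

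**Figure D5:**
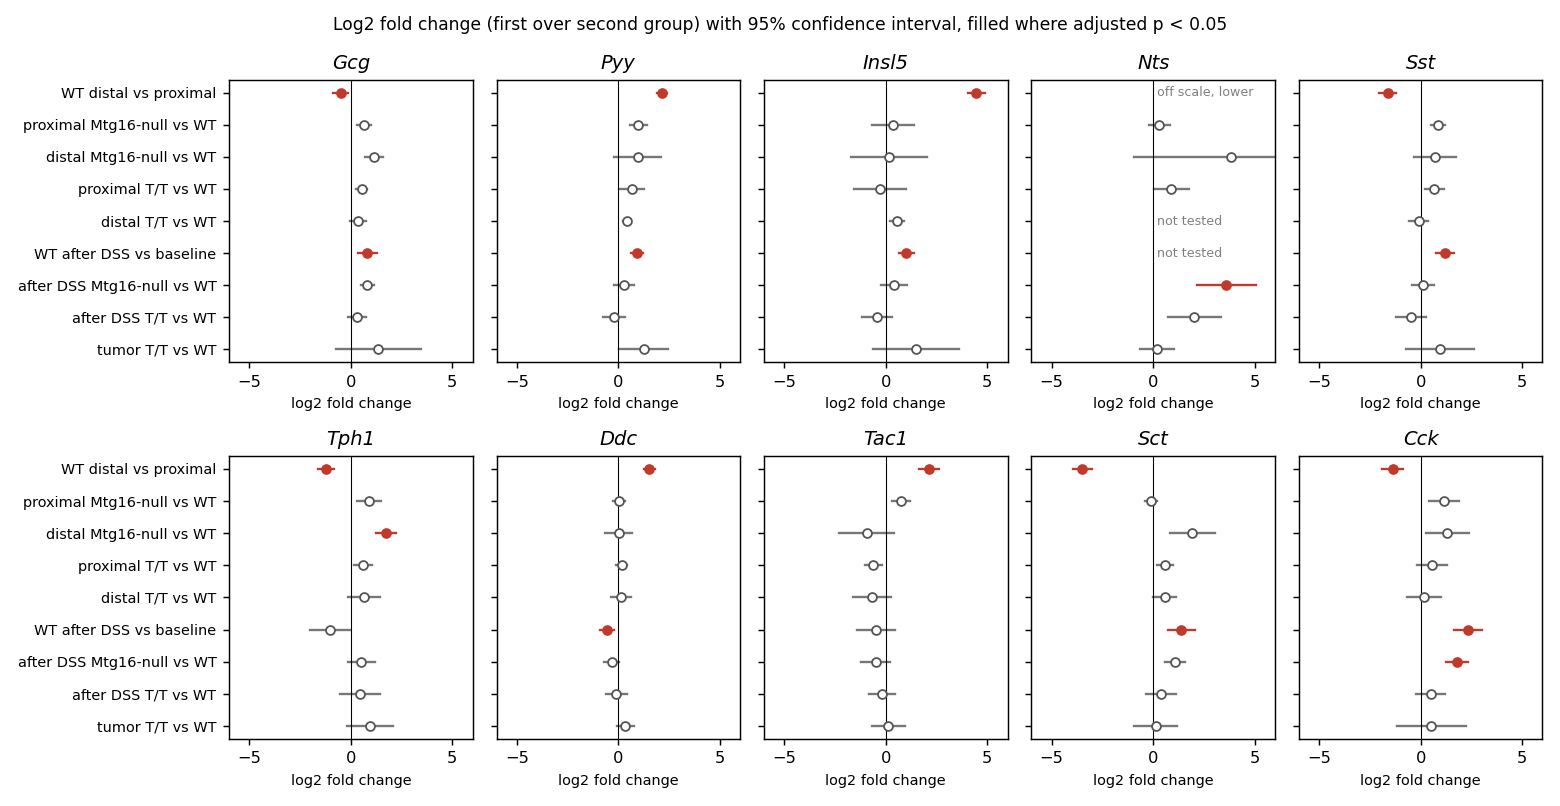
Log2 fold change with its 95% interval (x axis) in the 9 comparisons (y axis, first over second group), 1 panel per gene, filled where limma's adjusted p was under 0.05. *Nts* in WT distal against proximal colon lies off the scale toward lower values, its interval in distal Mtg16-null colon runs past the axis, and it was not tested in distal T/T colon or in WT colon after DSS. All 10 genes were called for distal against proximal WT colon, 7 for WT colon after DSS against baseline, 2 for Mtg16-null colon after DSS and 1, *Tph1*, for distal Mtg16-null colon at baseline.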

How the data were processed

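Sequencing of RNA gave 42 libraries of mouse colon crypts or tumors in 14 groups. Per the submitters' processing notes, the tools were fastp 0.20.0, Salmon 1.3.0, R 3.6.3 and DESeq2 1.26.0, with GENCODE vM21 (GRCm38). The signal values that the authors deposited are normalized counts, that is, estimated reads per gene divided by 1 size factor per library, in 9 tables scaled separately. The authors' own fold changes and p-values in these tables were not used, and 0 per-sample columns were left unused. Counts stored this way keep their depth, and whole reads (within 0.01) were recovered in 7 tables, but not in the 2 proximal mutant tables. Some libraries serve in several tables.

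Genes were kept if their normalized counts averaged 10 or more. The log2 (normalized count + 1), on which changes of low genes are understated, was analysed with limma 3.58.1 (trend method, R 4.3.3) and Benjamini-Hochberg adjustment over all genes of a comparison, at a threshold of 0.05. Ratios of products were tested with exact two-sided permutation tests (Python 3.11.15). The calculations were tested on simulated data. The alternatives were a pseudocount of 0.1, no filter, each library left out, a replicate block, the label number as a covariate or within-number fits, TMM rescaling, and, from the recovered reads, edgeR 4.0.16 (quasi-likelihood) or DESeq2 1.42.0. Replicate numbers were treated as pairs where each of 3 or more pairs deviated together (correlation over 0.1), which held only for Mtg16-null and WT crypts after DSS. No label states what the numbers mark, so the pairing rests on this correlation. Promoter windows of chromosome 18 were left out. The genes and lists were chosen with earlier results of these data known. All 10 genes are named, with *Chga*, the 3 genes most like *Gcg*, *Tph1* and *Sst*, and members of the lists, most of them called. Uncalled marker genes, and some called ones, were chosen after their values were seen.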

Additional observations from a re-analysis of the deposited data

Results flagged for a closer look

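In groups of 4 to 10 libraries, a library was singled out where its gap to the nearest other library was large against the range of the group (Dixon's critical value at 95%). Of 57 groups tested over the 10 genes, 6 had such a library, where chance alone gives about 1 in 20 groups. Of these, 5 were the library labelled distal Mtg16-null replicate 2, whose segment score was that of proximal colon. It had 543 normalized counts of *Insl5* against 7354 to 8621 in the other 3 Mtg16-null libraries, 2333 of *Nts* against 0 to 9.27, 622 of *Sst* against 131 to 195, 1275 of *Sct* against 283 to 327 and 199.9 of *Cck* against 40.9 to 60.6. Each departed in the direction in which proximal WT colon differs from distal WT colon. The remaining library was Mtg16-null replicate 2 after DSS, with 282 normalized counts of *Sct* against 428 to 442 in the other 3.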

How the results depend on the processing

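The number of the 10 genes called changed with the processing in 7 of the 9 comparisons, and was 0 throughout in proximal Mtg16-null colon and in tumors. Between the WT segments it was 10, and 9 with edgeR, with the label number as a covariate, within label number 4149 and with any of 6 libraries left out, the gene lost being *Gcg* each time. In distal Mtg16-null colon it was 1 with all libraries, 0 with a replicate block (adjusted p of *Tph1* 0.185), with the label number as a covariate and within label number 4149 or 5094 alone, and 3 with DESeq2. Leaving out 1 library gave 0 to 4, with 4 without Mtg16-null replicate 2 and 0 without Mtg16-null replicate 1, 3 or 4 or WT replicate 1, 2 or 3, while without WT replicate 4 the 1 gene called was *Gcg* in place of *Tph1*. In proximal T/T colon the count was 0, and 2 with the replicate block (*Nts* and *Tph1*, log2 fold changes 0.89 and 0.61), where 1.10% of all genes passed and the numbers were not shown to pair the libraries. It was 0 in distal T/T colon and in T/T colon after DSS, and 1 in each with DESeq2. In Mtg16-null colon after DSS it was 2, with 1 at a pseudocount of 0.1 and with edgeR, 4 with the replicate block and with DESeq2, and 1 to 2 with a library left out (1 without Mtg16-null replicate 1, 3 or 4 or WT replicate 1 or 3). In WT colon after DSS it was 7, and 0 to 8 with a library left out, with 0 without baseline replicate 2, 4 without baseline replicate 1 and 3 without DSS replicate 1. The replicate block moved the count of the 10 genes by over 1.5 times in no other comparison. The cause of these changes was not tested.

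*Insl5* in distal Mtg16-null colon reversed, to a log2 fold change of -0.59 within label number 5094, and ranged from -0.21 to 1.12 with a library left out (-0.19, -0.14 and -0.21 without Mtg16-null replicate 1, 3 and 4). Of the 45 product ratios, 4 passed, and 0 to 4 did with a library left out. The difference between the distal effects of the mutants passed for 0 of the 10 genes, and for 1 without Mtg16-null replicate 2, a choice made after seeing the data, as were the list counts and correlations without it and the list counts with the block in Mtg16-null colon after DSS. Over all genes, the count called moved from 33 to 1 (block), 8 (label number as a covariate), 2 and 0 (within label numbers 4149 and 5094) and 200 (DESeq2) in distal Mtg16-null colon, from 91 to 1271 (block) and 727 (DESeq2) in Mtg16-null colon after DSS, from 4833 to 2679 (block) in WT colon after DSS, from 5824 to 3189 (label number as a covariate) and 2014 (within 4149) between segments, from 9 to 32 (block) in proximal Mtg16-null, from 32 to 151 (block) and 2 (no filter) in proximal T/T, from 5 to 0 (block) and 53 (DESeq2) in distal T/T colon, and from 0 to 1 (no filter) and 24 (DESeq2) in tumors. Leaving out a library gave 28 to 106 genes in Mtg16-null colon after DSS and 2 to 143 in distal Mtg16-null colon. In WT colon after DSS it gave 1 to 9086. With 2 libraries per group the proximal comparisons detect only large differences, and a gene near a mean of 10, as *Nts* in distal colon, is limited by counting.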

Other observations

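The genes whose levels moved most like *Gcg*, *Tph1* and *Sst* were taken over all libraries after subtraction of the group means, among 11149 genes. These correlations describe 42 libraries taken from 7 tables scaled separately, and 1 of them has a segment that goes against its label. Over the 42 libraries they were *Klk1* (Pearson r = 0.84), *Scin* (0.82) and *Gm5485* (0.81) for *Gcg*, *Ifit1bl2* (0.78), *Chgb* (0.78) and *Pigr* (0.75) for *Tph1*, and *Slco2b1* (0.71), *Sct* (0.69) and *Foxd2* (0.69) for *Sst*. Without the library labelled distal Mtg16-null replicate 2 they were *Btnl1* (0.88), *B4galnt2* (0.85) and *Klk1* (0.84) for *Gcg*, *Frrs1* (0.81), *Mkks* (0.81) and *Nox1* (0.80) for *Tph1*, and *Pyy* (0.77), *Pcsk1n* (0.69) and *St6galnac4* (0.68) for *Sst*, so 1 library set most of the names. Among the hormone genes themselves, over the 42 libraries, *Gcg* had r = 0.53 with *Insl5*, 0.47 with *Pyy*, 0.46 with *Tph1* and 0.45 with *Sst*, and without that library the values were 0.76 with *Insl5* and 0.71 with *Pyy*.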
